A study of Mus musculus with 12 samples.

Results

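The cytosolic ribosomal proteins are the protein components of the ribosome that translates messenger RNA outside the mitochondria. They were chosen by name: every protein_coding row of the deposited count table whose gene name starts with Rpl or Rps and a digit, together with Rplp0 to Rplp2 and Rpsa, and without the Rps6k kinases. The rule found 103 of the 40760 genes of the table. They comprised 31 proteins of the small (40S) subunit, 43 of the large (60S) subunit, 3 of the P stalk and 8 paralogs. The rest were 16 genes labelled as coding that carry a pseudogene's name and 2 genes with other names of this kind (Rps19bp1 and Rpl6l). In the GENCODE M21 annotation used for lengths, many of the 16, such as Rpl27-ps3 and Rps26-ps1, had no coding sequence, and neither had Rpl6l. All 77 genes of the subunits and the stalk had enough counts to be tested, and 90 of the 103 were tested in all. The 13 that were not, among them the paralogs Rpl3l, Rpl10l and Rpl39l, reached at most 35 reads in any library.

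The ribosome is built from nearly equal numbers of each of these proteins, arranged on ribosomal RNA. The 40S subunit reads the message, the 60S subunit joins the amino acids, and the P stalk (Rplp0, Rplp1 and Rplp2) recruits the elongation factors. Most of the messages are known to start with a terminal oligopyrimidine (TOP) tract, a C at the cap followed by an unbroken run of C and U. The kinase complex mTORC1 and the cap-binding protein Larp1 control translation through this tract, and Larp1 also stabilizes TOP messages. A few of the proteins have a second role: free Rpl5 and Rpl11 bind Mdm2 and so raise p53.

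The 12 libraries came from CD140a+ (Pdgfra+) mesenchymal cells sorted from the lungs of young adult male mice on the C57BL/6 background, with 3 libraries in each of 4 groups. WT vehicle and WT bleo were wild-type mice given vehicle or bleomycin (bleo), a DNA-damaging drug that injures the lung and leads to fibrosis. The other groups, labelled Pear1-/- vehicle and Pear1-/- bleo, were mice homozygous for a knockout-first allele of Pear1 (a gene-trap cassette with a splice acceptor, LacZ and Neo in an intron), a receptor with EGF-like repeats, in every cell of the body. The study's methods give doses and a day for its bleo model but do not say which apply to these libraries, nor how many mice went into each, so the p-values measure only the spread between these libraries.

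Pear1 itself went against the genotype labels. Its normalized counts were 576, 545 and 519 in WT vehicle and 511, 501 and 547 in the libraries labelled Pear1-/- vehicle (log2 difference -0.08, SE 0.0732, adjusted p = 0.470). They were 256, 239 and 266 in WT bleo and 355, 372 and 344 in the libraries labelled Pear1-/- bleo, higher in the latter (0.48, SE 0.0775, adjusted p = 0.000120). Counts per gene do not separate the exons before the cassette from those after it, so they do not test whether the protein was made. The genotype is therefore given throughout as the label of the libraries, and every direction between genotypes rests on that label.

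Total counts ranged from 6702948 to 10447101 per library. A floor of 3 counts came to between 0.287 and 0.448 CPM (reads scaled to a common total). It is given for scale, and no test or call used it. Within WT vehicle, replicate 2 stood apart. Over all genes its counts differed from those of replicates 1 and 3 with a chi-square per degree of freedom of 24.5 and 25.6, against 1.71 between replicates 1 and 3 and 1.36 to 5.18 within the other groups. Over the ribosomal protein genes alone these values were 34.9 and 45.3, and in Pear1-/- vehicle replicate 3 stood apart from replicates 1 and 2 as well (28.4 and 19.4, against 3.39 between those). For each of the 77 genes of the subunits and the stalk, WT vehicle replicate 2 was above both other libraries of its group. It was nearer to the mean of Pear1-/- vehicle for each, and within the range of Pear1-/- vehicle for 65 of the 77. The set's counts and medians that rest on WT vehicle are given with and without replicate 2, and so are values of single genes where a sentence says so. All 11 fibroblast markers were detected in each group, and so were all markers of leukocytes, endothelium and epithelium, so the sorted cells were not free of RNA from other cell types. In these bulk libraries fewer cells of a type and less RNA per cell cannot be told apart.

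The starts of the messages are shown for genes on which the results turn, since the TOP tract is the feature for which the family is known. Each window holds 30 bases of the gene's own strand, with 10 bases before the annotated start, from RefSeq on build GRCm38.p6. Capitals mark a C at the annotated start and the pyrimidines that follow it without a break. The first 5 have a tract (a C and at least 4 more C or T), and the last 3 do not have one at the annotated start.
Rpl28, + strand of chr7:4792955-4792984: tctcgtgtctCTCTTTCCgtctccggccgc
Rplp2, + strand of chr7:141447641-141447670: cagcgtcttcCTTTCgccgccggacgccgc
Rpl38, + strand of chr11:114668570-114668599: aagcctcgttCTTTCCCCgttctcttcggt
Rps27, - strand of chr3:90213629-90213658: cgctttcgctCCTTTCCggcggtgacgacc
Rps6, - strand of chr4:86857348-86857377: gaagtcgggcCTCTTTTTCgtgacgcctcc
Rps27l, + strand of chr9:66946076-66946105: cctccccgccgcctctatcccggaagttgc
Rpl5, + strand of chr5:107900518-107900547: cgtcgcttgcgtgctggtggtgctacatac
Rps2, + strand of chr17:24720053-24720082: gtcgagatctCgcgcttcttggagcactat

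Of the 77 genes, 57 were in the table of starts. A tract stood at an annotated start of 13 of them (22.8%), against 3.01% of the 27025 genes of the table. It was looked for on the gene's own strand only. The pair Rps27 and Rps27l, which encode near-identical proteins of the 40S subunit, differed in this respect: the Rps27 window opened with a tract, and neither annotated start of Rps27l did. Annotated starts can be some bases off the true cap, as in Rpl13a, whose tract lay next to its annotated start. A search that placed the C within 5 bases of the start but asked for at least 6 pyrimidines after it, where the first asked for at least 4, gave 22 genes (38.6%), against 7.65%. Rpl29, Rpl30 and Rps29 were not matched.

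The levels of these messages were far from equal, although the proteins are used in nearly equal numbers. Per kilobase of the principal transcript, Rps27 was highest with 1466 CPM per kb as the mean over the 12 libraries. Rpl13 (998), Rplp0 (899), Rps29 (890) and Rpl41 (882) followed. These are means over all libraries, and the order was not the same in each group: Rps29 stood above Rplp0 in WT bleo (1284 ± 64.7 against 1024 ± 7.20, SD, n = 3) and below it in Pear1-/- bleo (853 ± 31.2 against 1054 ± 20.1). Rpl22 (38.7), Rps15a (38.3), Rpl23a (10) and Rpl24 (3.02) were lowest. The transcript used for Rps15a has 5179 bases for 390 coding bases, and that for Rpl22 has 2051 for 384. A level per kilobase depends on this choice of transcript, so the low places of these 2 genes are uncertain. Rpl24 and Rpl23a are essential proteins of the 60S subunit, and 80.1% and 80% of the 100-base stretches of their transcripts also occur in other genes. Rps27 shared 98.4% of its stretches and was nevertheless highest. Over the 77 genes the level and the share of such stretches had a Spearman correlation of 0.036. How reads that match several genes were counted is not given in the sources used here, so levels of members with close copies are uncertain. The genes are short, with a median transcript of 886 bases against 3021 for all protein-coding genes tested, and 30 of the 77 hold a small nucleolar RNA gene within them (39.0%, against 1.63%).

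**Figure D1:**
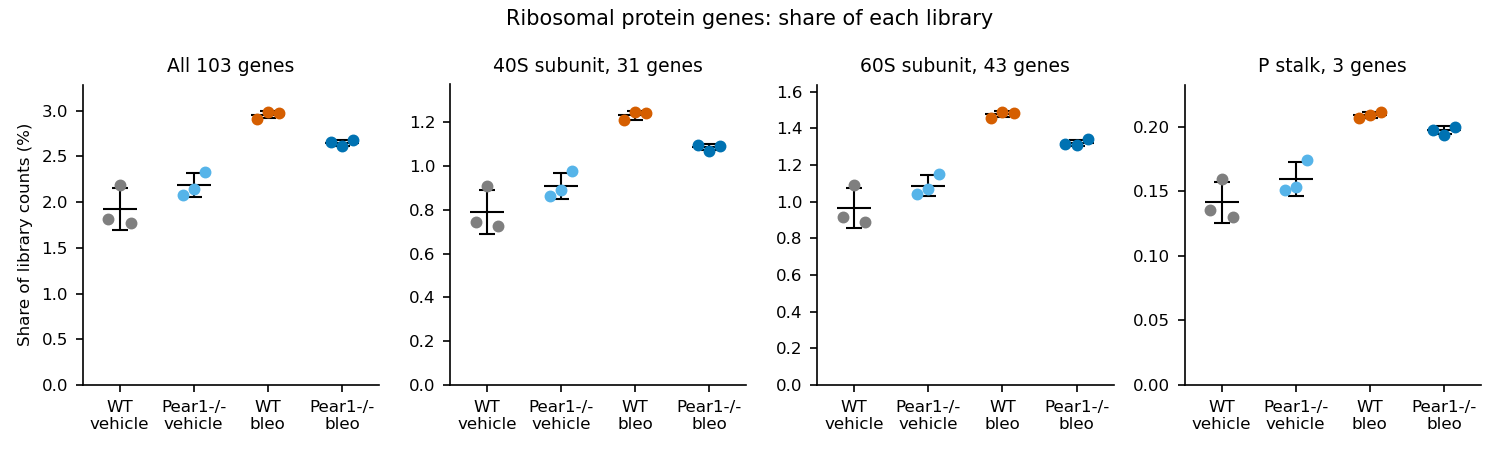
Share of each library's counts (%) taken by the ribosomal protein genes, for all of them, each subunit and the stalk. Each library is 1 point, with the mean as a line and the SD as a bar (n = 3 per group). All libraries of WT bleo lie above those labelled Pear1-/- bleo for the set as a whole, both subunits and the stalk. The paralogs, which are not drawn, lay below them (0.0326% to 0.0346% in WT bleo against 0.0367% to 0.0381%). For the whole set WT vehicle replicate 2 (2.18%) lies within the range of Pear1-/- vehicle.

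Taken as a sum, the ribosomal protein genes held a larger share of the counts after bleo than after vehicle. Their share was 1.82%, 2.18% and 1.77% in the WT vehicle libraries and 2.91%, 2.99% and 2.97% in WT bleo. In the libraries labelled Pear1-/- it was 2.08%, 2.14% and 2.33% after vehicle and 2.65%, 2.61% and 2.67% after bleo. The bleo libraries did not overlap the vehicle libraries of the same genotype, and all libraries labelled Pear1-/- bleo lay between Pear1-/- vehicle and WT bleo. With 3 libraries against 3, a two-sided exact permutation test cannot go below p = 0.1. The 40S proteins held 1.23% ± 0.0210 (SD, n = 3) in WT bleo and the 60S proteins 1.48% ± 0.0164, against 0.792% ± 0.10 and 0.965% ± 0.109 in WT vehicle. The share also depends on what else was sequenced. Immunoglobulin transcripts alone took 8.45% to 12.9% of the counts of the WT vehicle libraries and 1.80% to 1.83% of those of WT bleo. For the libraries labelled Pear1-/- the ranges were 12.8% to 13.9% after vehicle and 7.12% to 7.17% after bleo. Without these transcripts the mean share of the ribosomal protein genes was 2.15% in WT vehicle and 3.01% in WT bleo, and 2.52% and 2.85% in the corresponding Pear1-/- groups. The tests used factors that do not rest on the totals.

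**Figure D2:**
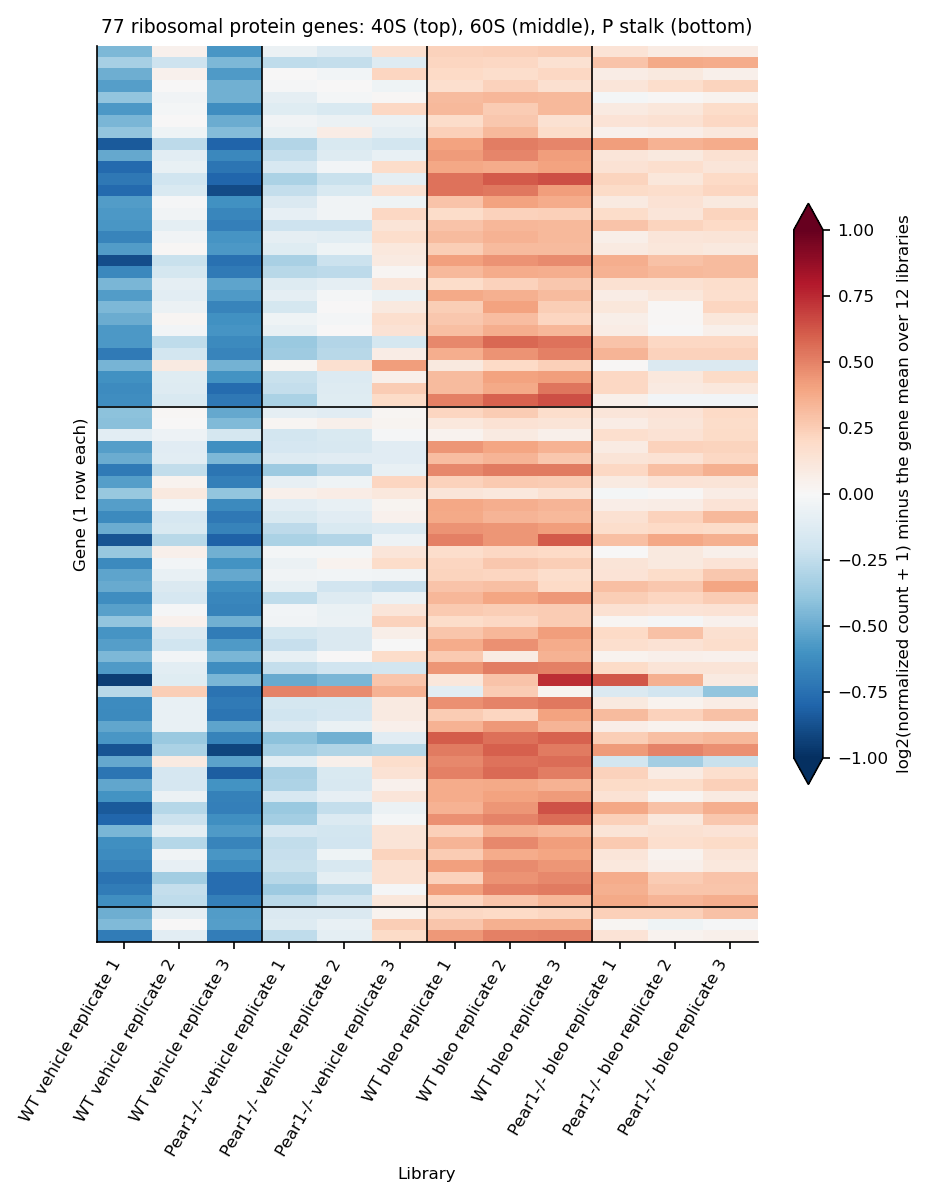
Log2 of the normalized count plus 1 of each of the 77 genes in each of the 12 libraries, as the difference from the gene's mean over all libraries, with genes in rows by class and libraries in columns by group. The median gene lies between 0.31 and 0.36 above its mean in WT bleo, 0.14 to 0.18 above it in Pear1-/- bleo, and 0.57 and 0.62 below it in WT vehicle replicates 1 and 3.

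In wild-type cells bleo raised nearly the whole set. Of the 90 genes tested, 83 were higher in WT bleo than in WT vehicle and none was lower at an adjusted p under 0.05, where 31.4% of all 17418 genes tested were higher and 36.6% lower. The median log2 fold change of the set was 0.75, against -0.07 over all genes. By class, 31 of 31 genes of the 40S subunit (median 0.73), 42 of 43 of the 60S subunit (0.81), 3 of 3 of the stalk (0.65) and 4 of 5 paralogs (0.50) rose. Abundant genes in general rose more often: among genes whose log2 CPM averaged 5 or more, 48.5% rose, and of the 79 ribosomal protein genes at this level 78 were. The groups did not overlap for the same number of genes, 83, against 32% of all genes.

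The largest rise was that of Rpl29, a 60S protein. Its normalized counts were 667, 975 and 641 in WT vehicle and 1735, 1831 and 1738 in WT bleo (log2 fold change 1.23, SE 0.117, adjusted p = 2.63e-07). For Rpl12, at the base of the stalk, they were 471, 703 and 489 against 1210.5, 1162 and 1306 (1.15, SE 0.124, adjusted p = 9.40e-07). The second library of WT vehicle was the highest of its group for both, and still far below every WT bleo library. Rpl28 rose by 1.13 (adjusted p = 6.86e-08) and Rpl31, near the exit of the peptide tunnel, by 1.08 (9.20e-06), both on the log2 scale. Rpl39, which lines that tunnel, rose by 1.04 (1.99e-06).

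The following members, taken from a fixed list, rose by less than these. Rplp0, the core of the stalk, had 7651, 10066 and 7282 normalized counts in WT vehicle and 12374, 12303 and 12454 in WT bleo (0.58, SE 0.0939, adjusted p = 6.01e-05). Its partners in the stalk rose by 0.65 (Rplp1, adjusted p = 0.000238) and 0.96 (Rplp2, 1.97e-05). Rpsa, also known as the laminin receptor, rose by 0.56 (0.000882), Rpl3, at the peptidyl transferase centre, by 0.51 (0.000338), and Rps6, the substrate of the S6 kinases, by 0.52 (0.000321). Rpl5 and Rpl11 are partners in the particle that binds Mdm2: Rpl11 rose by 0.87 (1.89e-06) and Rpl5 by 0.18 (0.0194).

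The 7 members that did not pass were Rpl22l1 (0.19, adjusted p = 0.206) and, looked up after their values were seen, Rpl24 (0.28), Rps19bp1 (0.25), Rpl6l (0.14) and the genes with pseudogene names Rpl9-ps6 (0.09), Rpl27-ps3 (0.36) and Rps26-ps1 (-1.0). Leaving out WT vehicle replicate 2 gave 86 genes higher (31.7% of all genes) with a median of 1.0, and with replicate 2 as the only WT vehicle library, a fit whose spread comes from the other groups and which has less power, 76 genes were higher (28.2% of all genes) with a median of 0.43. The number that rose more than 2-fold depended on that library and on the processing. It was 15 with all libraries (10.5% of all genes), 45 without replicate 2 (11.4%), and 6 without replicate 1 (10.6%) or without replicate 3 (10.5%). With libraries scaled by their upper quartile it was 3 (8.3%), by their totals 6 (9.06%), and without the filter on low counts 26 (5.83%).

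**Figure D3:**
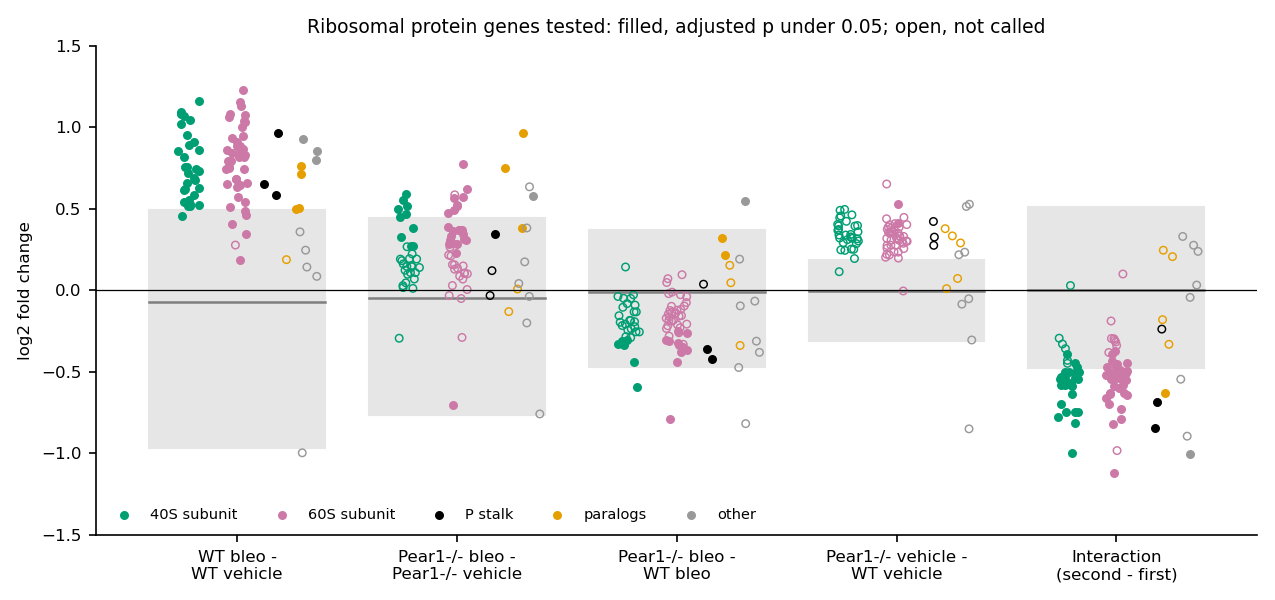
Log2 fold change of each ribosomal protein gene tested, in the 4 comparisons and the interaction, with 1 point per gene, colours for the classes, filled points where the adjusted p was under 0.05, open points elsewhere, and grey boxes from the lower to the upper quartile of all genes tested, with a line at their median. In WT mice 83 of 90 points are filled above 0, and in the interaction 63 are filled below 0.

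In the libraries labelled Pear1-/- the rise after bleo was smaller, and fewer members passed. Of the 90 genes, 38 were higher in Pear1-/- bleo than in Pear1-/- vehicle and 1 was lower, against 28.9% and 33.4% of all genes, and no member was called with more than a 2-fold change, against 8.38% of all genes higher and 19.4% lower. The median log2 fold change was 0.21, against -0.05 over all genes. Among the 40S proteins 10 of 31 rose, among the 60S proteins 23 of 43, and in the stalk 1 of 3, Rplp0 (0.34, adjusted p = 0.00491). The groups did not overlap, with bleo higher, for 49 members (33.2% of all genes) and, with bleo lower, for 3 (37.8%). Among all genes whose log2 CPM averaged 5 or more, 41.9% were higher.

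The largest rise here was not in a standard subunit gene but in the paralog Rps27l, which p53 is known to induce. Its normalized counts were 699, 686 and 689 after vehicle and 1362, 1330 and 1346 after bleo (0.97, SE 0.0789, adjusted p = 6.20e-08). Rpl29 followed, with 955, 985 and 993 against 1632, 1710 and 1663 (0.77, adjusted p = 3.59e-05), and then the paralog Rpl7l1 (0.75, 9.74e-07), Rpl28 (0.62, 4.53e-05) and Rps19bp1 (0.58, 0.00306), which encodes a protein that binds Rps19. Rpl29 and Rpl28 were thus among the 6 largest rises in both genotypes. Rpl11 rose by 0.37 (0.00417) and Rpl5 by 0.28 (0.00136). Rpl3 (0.22, adjusted p = 0.0713), Rps6 (0.22, 0.0643) and Rpsa (0.11, 0.453) did not pass.

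A few members had lower values after bleo in these libraries. Rps27 had 4517, 4995 and 5951 normalized counts after vehicle and 4497, 4032 and 4043 after bleo (-0.29, SE 0.130, adjusted p = 0.0615). Rpl30, a 60S protein that in yeast represses the splicing of its own message, had 1341, 1496 and 1627 against 1272, 1139 and 1232 (-0.29, SE 0.130, adjusted p = 0.0655). For both, every bleo library was below every vehicle library, but neither passed the test. The gene that did, Rpl24, was named after its values were seen and rests on few reads, with 22.9 to 25.6 normalized counts against 13.3 to 16 (-0.71, adjusted p = 0.0477). The number of members called higher was 16 without Pear1-/- vehicle replicate 1, 19 without its replicate 2, 20 without Pear1-/- bleo replicate 1 and 22 without its replicate 3, in fits that called 21.3% to 21.6% of all genes higher.

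After bleo most ribosomal protein messages had slightly lower values in the libraries labelled Pear1-/- than in WT bleo, but most differences were not called. Of the 90 genes, 19 were lower and 3 higher, against 23.9% and 22.1% of all genes, with a median of -0.19. The share called lower was below that of all genes. The groups did not overlap for 62 members with Pear1-/- bleo lower and for 8 with it higher, against 31.6% and 31.3% of all genes. The differences were therefore small but mostly of one sign. Of the 19, 6 were 40S proteins, 11 were 60S proteins and 2 belonged to the stalk.

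Among the members called whose log2 CPM averaged 3 or more, Rpl30 was furthest apart. WT bleo had 2015, 2102 and 2120 normalized counts and Pear1-/- bleo 1272, 1139 and 1232, which is within the range of the vehicle libraries (-0.79, SE 0.131, adjusted p = 0.000151). Rps29, a small zinc-binding 40S protein, had 4222, 4481 and 4662 against 3086, 2921 and 2929 (-0.59, SE 0.133, adjusted p = 0.00187). Both groups were tight, and for both genes the gap between them was several times the spread of either. Rpl26 (-0.44, adjusted p = 0.0109), Rplp2 (-0.42, 0.0191) and Rpl31 (-0.38, 0.0381) were also among the 6 lowest of these. Rpl6l, with fewer reads, had a lower value than Rpl30 and was not called (-0.82, adjusted p = 0.151). In the stalk Rplp1 was lower as well (-0.36, 0.0249), while Rplp0 had 12374, 12303 and 12454 counts in WT bleo and 12633, 12680 and 13136 in Pear1-/- bleo (0.04, adjusted p = 0.781). Rplp1 and Rplp2 bind to Rplp0 in the ribosome; whether the genes of the stalk differed from each other was not tested. The 3 members that were higher were Rps19bp1 (0.55, 0.00624), Rpl7l1 (0.32, 0.00333) and Rps27l (0.22, 0.0325), none of them a standard subunit protein.

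The number of lower members went from 19 to between 3 and 7 when any 1 of the 6 bleo libraries was left out: 7 without WT bleo replicate 1, 5 without replicate 2 and 4 without replicate 3, and 6, 3 and 4 without Pear1-/- bleo replicates 1, 2 and 3. These fits called 16.9% to 17.3% of all genes lower. Rpl30 and Rps29 were called in all 6 of these fits, whereas Rplp1, Rplp2, Rpl31 and the higher Rps27l were called in none. Rpl26 lost its call in 3 of them and Rpl7l1 in 1, that without Pear1-/- bleo replicate 2. With only the 6 bleo libraries in the fit, which then estimates the spread from the bleo groups alone, 65 members were lower and 6 higher, against 32.8% and 33.1% of all genes in that fit.

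**Figure D4:**
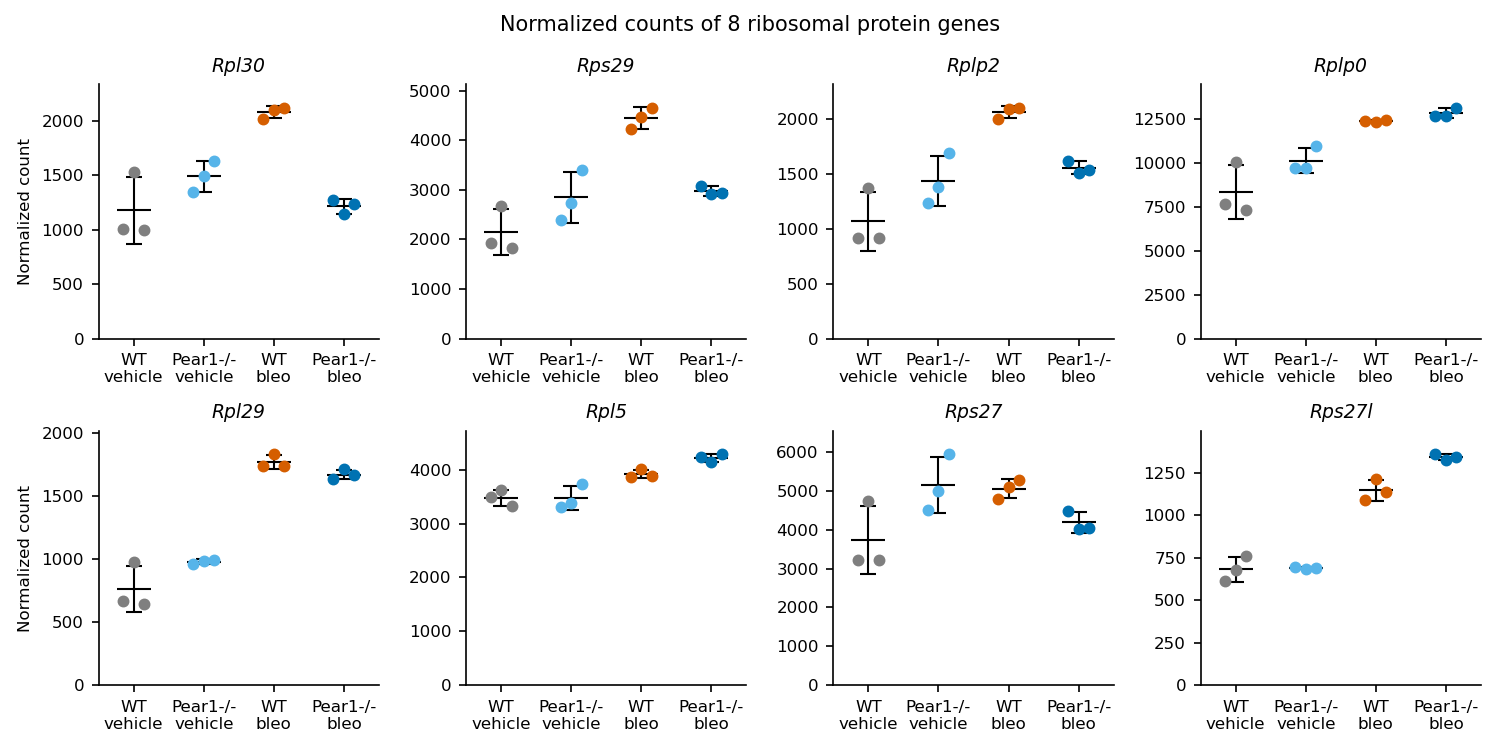
Normalized counts of Rpl30, Rps29, Rplp2, Rplp0, Rpl29, Rpl5, Rps27 and Rps27l in the 12 libraries, with 1 point per library, the mean as a line and the SD as a bar (n = 3 per group), each axis from 0. Rpl30 has 2015 to 2120 in WT bleo and 1139 to 1272 in Pear1-/- bleo, and Rps27l is above its vehicle libraries in both.

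Between the vehicle groups 2 members passed. Rpl38, a 60S protein needed for translation of some Hox messages, had 519, 684 and 513 normalized counts in WT vehicle and 718, 811 and 966 in the libraries labelled Pear1-/- vehicle (0.53, SE 0.121, adjusted p = 0.0397). Rpl36a had 701, 877 and 677 against 904, 937 and 1172 (0.41, SE 0.108, adjusted p = 0.0454). No member was lower, against 0.855% of all genes called higher and 3.65% called lower. The groups did not overlap for 8 members, all with Pear1-/- vehicle higher (8.28% of all genes; 10.9% with it lower). The median of the set was 0.33, against -0.004 over all genes and 0.10 over those whose log2 CPM averaged 5 or more. An unadjusted p under 0.05 was found for 75 of the 90 genes, for 5508 of all 17418 and for 1996 of the 5507 at that level. This comparison turned on 1 library: without WT vehicle replicate 2 there were 80 members higher, against 25.5% of all genes in that fit. Without any other vehicle library no member was called, and neither was any other gene. With replicate 2 as the only WT vehicle library the median was 0.02; the lack of calls there says little, since a single library leaves less power.

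Whether bleo had a different effect in the genotypes was tested as the interaction, the rise in Pear1-/- libraries minus that in WT libraries. It shares all its libraries with the comparisons above and restates them as 1 difference. It was below 0 at an adjusted p under 0.05 for 63 of 90 members and above 0 for none, against 19.1% and 17.9% of all genes and 30.5% lower among genes whose log2 CPM averaged 5 or more. In 2 members, Rpl30 and Rpl10-ps3 (named after its value was seen), the difference was more than 2-fold (7.06% of all genes). Without WT vehicle replicate 2 this held for 14 members (9.83% of all genes). With all 12 libraries the median was -0.52, against -0.00 over all genes. The typical member's bleo-to-vehicle ratio in Pear1-/- libraries was thus 0.698 times that in WT libraries. Members below 0 at an adjusted p under 0.05 numbered 25 of 31 for the 40S subunit, 34 of 43 for the 60S subunit, 2 of 3 for the stalk and 1 of 5 for the paralogs.

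Among the members with enough reads to be named by the rule, Rpl30 had the largest interaction (-1.12, SE 0.185, adjusted p = 0.000258), then Rps29 (-0.998, SE 0.188, adjusted p = 0.000784) and Rplp2 (-0.84, SE 0.194, adjusted p = 0.00335). Rpl31 (-0.82, 0.00528), Rps12 (-0.81, 0.00663) and Rpl26 (-0.79, 0.00338) were next. Rpl30 and Rps29 are small proteins whose messages rose in WT mice by 0.83 and 1.07. Rps29 stayed at 0.07 (adjusted p = 0.667) in Pear1-/- libraries. From the fixed list, Rplp0 (-0.24, adjusted p = 0.176), Rpl3 (-0.30, 0.115), Rps6 (-0.29, 0.118), Rpsa (-0.45, 0.0531) and Rpl5 (0.10, 0.417) did not pass. Rps2, looked up after its values were seen, rose by 0.53 in WT and 0.55 in Pear1-/- libraries (interaction 0.03, SE 0.0961, adjusted p = 0.846).

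The interaction equals the difference between the bleo groups minus that between the vehicle groups, and their medians were -0.19 and 0.33. Its larger part thus lies in the vehicle libraries, in the comparison that turned on 1 library. There, Pear1-/- vehicle had higher values than WT vehicle for most members. Without WT vehicle replicate 2, 78 members were lower in the interaction (26% of all genes) and the median was -0.78. With it as the only WT vehicle library the median was -0.20, and 26 members were lower (16.8% of all genes) in a fit that has less power by its construction. Leaving out Pear1-/- vehicle replicate 3 gave 37 members (15.6% of all genes) and leaving out Pear1-/- bleo replicate 1 gave 41 (14.4%). Among the 19 members of the subunits and the stalk that share under 20% of their 100-base stretches with other genes, 19 were higher in WT bleo, 7 in Pear1-/- bleo, and 15 were lower in the interaction.

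Short members had the lower values in the interaction, a description made after the values were seen. Coding lengths ran from 75 bases (Rpl41) to 1257 (Rpl4). Over the 77 genes the coding length had a Spearman correlation of 0.53 with the interaction, 0.45 with the difference between the bleo groups, -0.44 with the rise in WT, 0.02 with the rise in Pear1-/- libraries and -0.45 with the difference between the vehicle groups. With the length of the whole transcript the correlation with the interaction was 0.26. The points share all libraries. In the 27 genes with under 405 coding bases the median interaction was -0.63, in the 24 between it was -0.53, and in the 26 with 572 bases or more it was -0.45. Over the other 14558 protein-coding genes tested the coding length had a correlation of 0.04 with the interaction, -0.17 with the rise in WT, -0.18 with the rise in Pear1-/- libraries, -0.07 with the difference between the bleo groups and -0.21 with that between the vehicle groups. Rpl30 (345 bases), Rplp2 (345) and Rps29 (168) are in the short group, and Rplp0, Rpl3, Rpl5 and Rps2 are among the longer ones. Rpl41, the shortest, went against this, with a smaller interaction than the median of the short group.

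**Figure D5:**
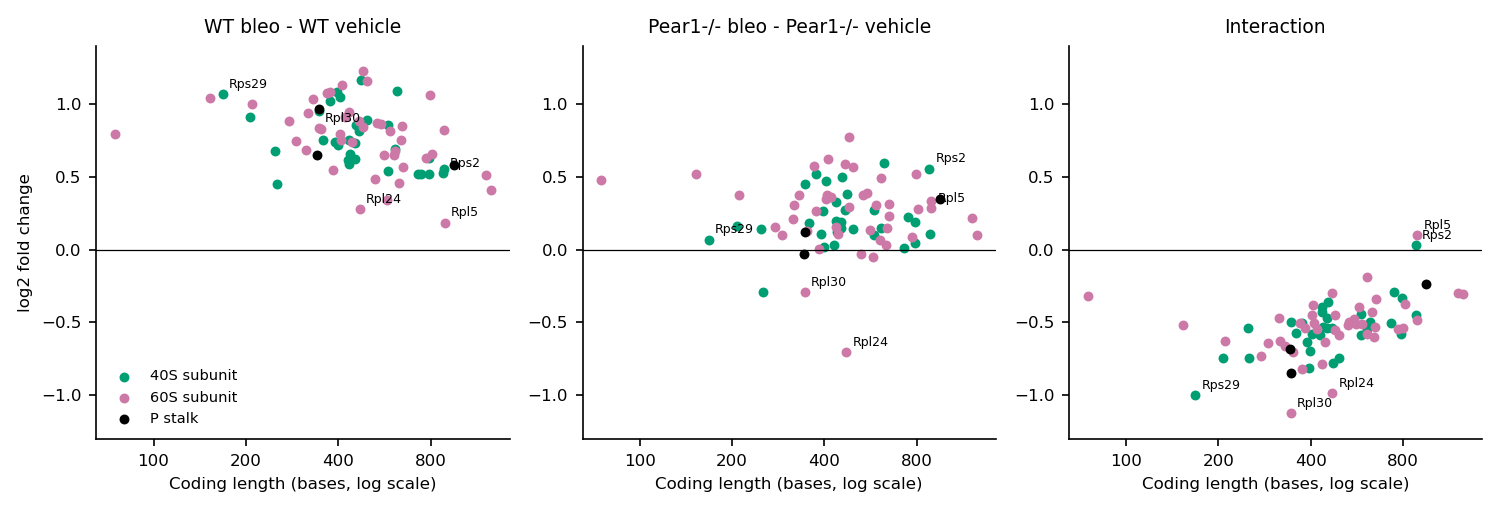
Log2 fold change of the 77 genes against the length of their coding sequence (bases, log axis), for the rise in WT, the rise in Pear1-/- libraries and the interaction, with 1 point per gene, colours for the classes and 5 genes named. Short genes lie higher in WT (Spearman -0.44) and lower in the interaction (0.53), while the Pear1-/- panel has no slope (0.02).

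The ratios of paralogs to the standard genes they resemble are given as values, with no test. As a ratio of normalized counts, Rps27l to Rps27 went from 0.190 ± 0.0464 (SD, n = 3) to 0.227 ± 0.0108 with bleo in WT and from 0.136 ± 0.0195 to 0.322 ± 0.0165 in Pear1-/- libraries. The bleo libraries labelled Pear1-/- lay above all others, and in WT the vehicle libraries (0.143 to 0.236) overlapped those of bleo (0.216 to 0.237). Rpl7l1 to Rpl7 went from 0.117 to 0.104 in WT and from 0.105 to 0.145 in Pear1-/- libraries, again highest in Pear1-/- bleo and again with overlap in WT. Rpl36al to Rpl36a went from 0.676 ± 0.0913 to 0.589 ± 0.0302 in WT and from 0.673 ± 0.0355 to 0.707 ± 0.0237 in Pear1-/- libraries, with overlap in both. Rpl22l1 to Rpl22 went from 0.448 to 0.356 in WT and stood at 0.453 and 0.454 in Pear1-/- libraries. Rpl22 rose in WT (0.54, adjusted p = 0.000447) and Rpl22l1 had 0.19 (0.206), which ran from 0.09 without WT vehicle replicate 3 to 0.46 without its replicate 2. In Pear1-/- libraries the values were 0.00 (0.974) and 0.01 (0.962). Rpl36al rose in both genotypes (0.71, 0.000328, and 0.38, 0.0233), and so did Rpl36a (0.93, 2.00e-06, and 0.31, 0.0204), although both lost the Pear1-/- call in 5 of the 6 fits that left out 1 library. Rps27rt rose in WT (0.50, 0.0111) but not beyond the spread in Pear1-/- libraries (-0.13, 0.475), with 0.81 in WT without WT vehicle replicate 2 and an interaction of -0.63 (0.0357) that lost its call in 8 of 12 such fits. Rps27rt had 87.3 to 175 normalized counts, and Rps27 shares 98.4% of its stretches with 2 other genes, so the split of reads among these copies is uncertain. Rps27l shares none.

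Ribosomal proteins under other names had values in the same range. Fau, whose product is cut into ubiquitin-like protein and the 40S protein eS30, rose by 0.91 in WT (adjusted p = 5.21e-06), had 0.15 in Pear1-/- libraries (0.264) and an interaction of -0.76 (0.00186). Rack1, listed under an older symbol, a scaffold on the 40S subunit, rose in both (1.13, 1.25e-06, and 0.70, 0.000167; interaction -0.43, 0.0649).

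The other lists of the translation pathway are given by their counts, beside the shares of all genes above. Among 20 further TOP genes, mostly elongation and initiation factors, 19 rose and 1 fell in WT, 12 rose and 1 fell in Pear1-/- libraries, and 9 were lower in the interaction. Eef1a1, which brings aminoacyl-tRNA to the ribosome, rose by 0.42 in WT (0.000440; 0.64 without WT vehicle replicate 2) with 0.06 in Pear1-/- libraries (0.583). Eef2, the translocase, had 0.42 (0.00218) and 0.05 (0.686). Btf3 rose most in WT (0.96, 1.84e-07), Npm1 most in Pear1-/- libraries (0.67, 2.47e-05), and Eif4a2, a helicase of initiation, fell in both (-0.30, 0.00799, and -0.89, 6.46e-07), although the WT call was lost without any 1 of the WT bleo libraries. Eif3l was the one gene of the list higher in Pear1-/- bleo than in WT bleo (0.26, 0.0147), a call lost when any 1 of the 6 bleo libraries was left out. In that comparison 4 genes of the list were lower, Eif4a2 among them (-0.40, 0.00191). Eif3k had the lowest interaction (-0.71, 0.00156).

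Among 18 cap-binding factors and parts of mTORC1, 11 rose and none fell in each genotype. Larp1 rose most in WT (1.29, 4.72e-07) and Eif4ebp1, which blocks the cap-binding protein until mTORC1 phosphorylates it, most in Pear1-/- libraries (1.08, 3.96e-08). Its relative Eif4ebp2 was lower in Pear1-/- bleo than in WT bleo (-0.84, 0.000483; interaction -1.45, 0.000244). Eif4g2 was higher (0.51, 2.34e-05).

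Genes of ribosome biogenesis included more that were higher than lower in Pear1-/- bleo. Of 46, 21 rose and 5 fell in WT, and 27 rose and 4 fell in Pear1-/- libraries. Between the bleo groups 18 were higher in Pear1-/- libraries and none was lower, and the median was 0.22 where that of the ribosomal proteins was -0.19. In the interaction 9 were higher and 1 lower, Myc, the transcription factor that drives ribosome production (-0.71, adjusted p = 0.0268). The Myc call was lost in 9 of the 12 fits that left out 1 library, whose values ran from -1.15 without WT vehicle replicate 2 to -0.56 without its replicate 1. Nhp2, a protein of the particles that modify ribosomal RNA, rose alike in size in both (1.11, 3.62e-08, and 1.102, 3.79e-08). Gar1, of the same particles, was higher in Pear1-/- bleo (0.85, 6.97e-05), and Rrp12 had the highest interaction (0.90, 0.0111). Utp20 fell in WT (-0.79, 0.000105). Myc had -0.03 in WT (0.870; 0.39 without WT vehicle replicate 2) and fell by 0.75 in Pear1-/- libraries (0.00116).

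Targets of p53 were listed because of Rpl5, Rpl11 and Rps27l. Of 12, 5 rose and 2 fell in WT, where 31.4% of all genes and 48.5% of abundant genes rose, and 7 rose and 2 fell in Pear1-/- libraries, where 28.9% and 41.9% did. Gdf15 rose most in WT (2.25, 3.43e-11) and was lower in Pear1-/- bleo than in WT bleo (-1.61, 3.74e-09). Zmat3 rose most in Pear1-/- libraries (1.15, 7.92e-06). Trp53inp1 fell in both (-1.56, 6.19e-08, and -0.96, 1.14e-05), and Phlda3 had the highest interaction (0.95, 2.76e-05). In the 12 targets the interaction was higher for 3 and lower for 2.

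Markers of other cells moved with the bleo groups and between the genotypes. The 13 leukocyte and myeloid markers together held 0.306% to 0.439% of the counts of WT vehicle libraries and 1.46% to 1.48% of those of WT bleo, and for Pear1-/- 0.424% to 0.466% after vehicle and 0.672% to 0.686% after bleo. Of these markers 11 were higher and 2 lower in WT bleo than in WT vehicle, and 1 was higher and 11 lower in Pear1-/- bleo than in WT bleo. The order of the groups by this share was the same as that by the ribosomal proteins' share. The 11 fibroblast markers held 1.86% to 1.95% after vehicle and 1.27% to 1.28% after bleo in WT, and 1.84% to 1.87% and 3.28% to 3.35% in Pear1-/- libraries. In the latter 4 of the 11 rose and 7 fell (median -1.05), so the sum does not stand for most of these markers. Of 9 B cell markers, 8 rose and none fell in WT, none rose and 6 fell in Pear1-/- libraries, and 9 were lower in the interaction. Of 12 T and NK cell markers, 1 rose and 10 fell in WT, 12 fell in Pear1-/- libraries, and 10 were lower in the interaction. Of 11 nuclear and mitochondrial RNAs, 1 rose and 7 fell in WT, 10 fell in Pear1-/- libraries, and 8 were lower in the interaction. The 9 epithelial markers held 0.517% to 0.697% in the vehicle libraries, 0.176% to 0.179% in WT bleo and 0.0764% to 0.0776% in Pear1-/- bleo. In WT vehicle replicate 2 both immunoglobulin transcripts (12.9%, against 8.68% and 8.45%) and leukocyte markers (0.439%, against 0.310% and 0.306%) were above the other libraries of its group. The part of these cells and RNAs in the ribosomal protein values was not tested.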

How the data were processed

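Cells sorted by flow cytometry gave full-length cDNA by SMART-Seq. Per the study's methods, reads were aligned to GRCm38 with HISAT2. The counting program, its strand setting and its treatment of reads that match several genes are not given in the sources used here. The authors deposited raw counts per gene and a table of normalized values, a signal that equalled each count divided by a DESeq2 size factor (largest relative difference of the factors 1.09e-10). The latter are the normalized counts printed.

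Counts were tested with edgeR (4.0.16, R 4.3.3) by the quasi-likelihood test, with TMM factors, the default filter on low counts, all 12 libraries and 1 mean per group. Benjamini-Hochberg adjustment ran over all 17418 genes. Genes were called at an adjusted p under 0.05, and a second count required a fold over 2. Fold changes are log2, bleo minus vehicle or Pear1-/- minus WT. The study's methods used limma. Here limma (3.58.1) and DESeq2 (1.42.0) were tried as alternatives. Levels per kilobase used the APPRIS principal transcript of GENCODE M21. The script was tested on simulated data. The total counts per library set the precision, and floors cover counting error only.

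Members and lists were chosen with earlier results of these data known. Named genes were the 6 largest called changes in each direction among members whose log2 CPM averaged 3 or more, every paralog tested, a fixed list of ribosomal proteins and factors, and the largest called change in each direction of each pathway list. Mitochondrial ribosomal proteins and the pseudogenes were added after seeing the data. A few genes that this rule names are not reported here.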

Additional observations from a re-analysis of the deposited data

Results flagged for a closer look

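By the interaction term, the response to bleo was unequal in the genotypes for 63 of the 90 ribosomal protein genes tested, all with the lower ratio of bleo to vehicle in the libraries labelled Pear1-/-, against 19.1% of all genes and 30.5% of those whose log2 CPM averaged 5 or more. The named members were Rpl30 (-1.12 on the log2 scale), Rps29 (-0.998), Rplp2 (-0.84), Rpl31 (-0.82), Rps12 (-0.81) and Rpl26 (-0.79). With WT vehicle replicate 2 as the only WT vehicle library the count was 26, against 16.8% of all genes, in a fit with 1 library in a group, which has less power by its construction. The set's median difference between the genotypes was 0.33 after vehicle, a comparison that turned on 1 library, and -0.19 after bleo. Groups of 3 libraries are too small for a test of single outlying libraries.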

How the results depend on the processing

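The medians of the ribosomal protein genes kept their sign under every alternative run. Those of all genes did move: without the filter on low counts they were -1.48 for WT bleo against vehicle, -0.37 between the vehicle groups and 0.41 in the interaction. With library totals they went from -0.05 to 0.00629 for Pear1-/- bleo against vehicle and from -0.0012 to 0.149 in the interaction. Calls with a fold over 2 moved. For WT bleo against WT vehicle 15 members rose so far, but 3 with upper-quartile factors (8.3% of all genes), 6 with library totals (9.06%) and 26 without the filter (5.83%). In the interaction 2 were lower by so much, but 0 with library totals (5.03%) and 14 without WT vehicle replicate 2 (9.83%). Where a count of calls without the fold limit moved by over 1.5 times, or a median by more than the spread, the values follow. The cause was not tested unless stated. For WT bleo against WT vehicle, no filter on low counts called 2 members lower (Rpl10l and Rpl13a-ps1), and with the second library as the only WT vehicle library, an alternative chosen after seeing the data that takes its spread from the other groups and has less power, the median was 0.43. For Pear1-/- bleo against Pear1-/- vehicle, members called lower numbered 2 with DESeq2 size factors, 3 with upper-quartile factors, 0 with library totals, 2 without the filter, 2 by the DESeq2 Wald test and 3 with only the 2 groups in the fit, and they were Rpl24, Rps27, Rpl30 or Rpl13a-ps1. For Pear1-/- bleo against WT bleo, library totals gave 30 lower, and only the 2 groups gave 65 lower and 6 higher. For Pear1-/- vehicle against WT vehicle, members called higher numbered 4 with upper-quartile factors, 4 with library totals, 73 without the filter (and 1 lower, Rpl10l), 30 by DESeq2, 13 by limma with a pseudocount of 1, 0 by limma with 0.5, 0 with only the 2 groups and 0 with the second WT vehicle library alone (median 0.0205). Of all genes these fits called 0.787%, 0.752%, 5.66%, 2.56%, 2.9%, 0.00574%, 0% and 0% higher, in the same order, so the fits with no member called had 1 gene called or none. In the interaction, members called higher numbered 1 with upper-quartile factors (Rpl7l1), 3 with library totals (Rpl5, Rpl7l1 and Rps27l) and 1 with the second WT vehicle library alone (Rps19bp1), which gave 26 lower and a median of -0.20. Of counts of protein-coding genes outside the mitochondrial genome, the set held 2.34% in WT vehicle and 3.24% in WT bleo, and 2.74% and 3.02% in the corresponding Pear1-/- groups. Of counts without immunoglobulin genes it held 3.01% in WT bleo, and 2.52% and 2.85% in the Pear1-/- groups. A search for a C within 5 bases of the start with at least 6 pyrimidines after it found a TOP start in 38.6%.

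Upper-quartile factors and library totals moved the median of all genes for WT bleo from -0.07 to -0.22 and -0.17. Leaving out 1 library at a time gave, for WT bleo, medians of 0.66 to 1.0 and 0 to 1 lower; for Pear1-/- bleo against vehicle, 16 to 36 higher and 0 to 1 lower; between the bleo groups, 1 to 2 higher and 3 to 7 lower; between the vehicle groups, 0 to 80 higher (0% to 25.5% of all genes), 0 to 1 lower and medians of 0.24 to 0.59; and in the interaction, 37 to 78 lower and medians of -0.78 to -0.43. The filter then needs fewer libraries, so more genes were tested. Counted once per gene, comparison and alternative, 171 calls of single genes were lost and 94 were gained, so 1 gene can count many times. The values that stayed the same numbered 2890, among them medians of all genes and counts with a fold over 2.

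The replicate numbers did not pair the libraries: the 18 correlations of same-numbered libraries ran from -0.16 to 0.0997. A replicate block in the fit gave 83 members higher in WT bleo, 38 higher and 0 lower in Pear1-/- bleo, 3 higher and 18 lower between the bleo groups, 2 higher between the vehicle groups (Rpl38 and Rpl13a) and 62 lower in the interaction.

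Depth limits members with few reads: Rpl24 had 9 to 27 reads per library. Levels of members with close copies depend on a counting rule that is not known. Total RNA per cell was not measured, so a share is relative to the other transcripts.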

Other observations

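Most genes for proteins of the mitochondrial ribosome, which translates the messages of the mitochondrial genome, rose after bleo in both genotypes. Of 76 tested, a list added after seeing the data, 55 rose and none fell after bleo in WT (median 0.52), where 31.4% of all genes rose, and 64 rose and 1 fell in the libraries labelled Pear1-/- (0.54), where 28.9% did. Between the bleo groups 23 were higher and 3 lower in Pear1-/- libraries (median 0.15), where 22.1% and 23.9% of all genes were. In the interaction 6 were higher and 3 lower (0.05), where 17.9% and 19.1% of all genes were.

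Processed pseudogenes of ribosomal proteins, also added after seeing the data, had 48 tested rows. In WT 20 were higher after bleo and none was lower, where 31.4% of all genes were higher and 36.6% lower. In Pear1-/- libraries 4 were higher and 3 lower, where 28.9% and 33.4% of all genes were. How many of these reads came from the parent genes was not tested. Rps4l, a pseudogene outside that set and looked up by its values, was higher in Pear1-/- bleo than in WT bleo (1.13, SE 0.128, adjusted p = 3.64e-06) and than in Pear1-/- vehicle (1.26, 7.45e-07), while it had -0.08 in WT (0.609).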
